A study of Mus musculus with 6 samples.

Results

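The genes described here carry bile acids through the absorbing cell of the distal small intestine, sense them there and send the resulting signal to the liver. The 9 members were fixed by name, as genes of bile acid uptake, binding, export, sensing and hormone output, out of 19938 genes with a usable probe set. They were chosen with earlier results of these data known, so their counts against all genes describe these genes only. All 9 were measured, each by 1 probe set annotated to a single gene. The epithelium of the small intestine was isolated from mouse embryos shortly before birth (E18.5, in days after conception) and its RNA was hybridised to 6 whole-transcript arrays. Of these, 3 arrays are labelled Gata4Gata6 cKO, a conditional knockout of the genes for the transcription factors GATA4 and GATA6, and 3 are labelled control. The series asks how expression in this epithelium differs with and without both factors. The cre driver, the deleted exons, the genotype of the controls, the strain and the section of intestine taken are not stated in what was used here, and neither is whether each array held RNA of 1 animal.

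Bile acids are made in the liver, released into the duodenum and recovered in the ileum. There the sodium-dependent transporter encoded by Slc10a2 takes them up across the brush border, the ileal bile acid binding protein encoded by Fabp6 holds them in the cytosol, and a heteromeric exporter encoded by Slc51a and Slc51b releases them to the portal blood. Inside the cell they activate FXR, the nuclear receptor encoded by Nr1h4. FXR switches on Fgf15, the mouse counterpart of human FGF19, a hormone that acts on the liver receptor FGFR4 with its partner beta-Klotho to lower bile acid synthesis. FXR also switches on Nr0b2, which encodes the repressor SHP. Abcc2 and Abcc3 encode exporters of conjugated organic anions on the apical and the basolateral face. In the mature gut Slc10a2, Fabp6 and Fgf15 are known as genes of the ileum.

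Values are log2 levels as deposited, so a step of 1 is a 2-fold difference, and a change is the mean of the cKO-labelled arrays minus the mean of the arrays labelled control, ± SE, with n = 3 arrays in each group. Each adjusted p comes from limma after Benjamini-Hochberg correction across all 19938 genes, and a gene was called at an adjusted p under 0.05. Separate animals are not stated for the arrays of a group, so the p-values may reflect technical spread among these samples only. Whole-array medians lay between 7.73 and 7.84. Precision is limited by how few arrays there are. The targeted genes were not lower where the labels place the knockout. Gata4 stood at 11.34, 11.39 and 11.51 on the cKO-labelled arrays against 10.95, 10.93 and 10.96 on the controls, a change of 0.47 ± 0.075 (adjusted p = 0.0101). Gata6 changed by 0.45 ± 0.065 (adjusted p = 0.0067). Both passed with any 1 array left out. Without both control 3 and cKO 2, described next, the changes were 0.485 for Gata4 and 0.465 for Gata6, with 2 arrays a group, and missed the threshold (adjusted p of 0.0646 and 0.0503). These probe sets may lie outside the deleted parts, so they do not check the labels, and all directions given here depend on those labels.

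The sampled cells carried their epithelial markers on every array. A list of 10 small intestinal epithelial genes, among them Epcam, Vil1, Cdx2 and Cdh17, averaged 12.25 to 12.40 on the cKO-labelled arrays and 12.17 to 12.18 on the controls, and none of its values lay under 10.26. Of these 10 genes 3 were higher and 0 lower on the cKO-labelled arrays. A pair of arrays stood apart in markers of other cells. A list of 10 hepatocyte genes averaged 7.61, 12.6 and 7.57 on cKO 1, 2 and 3, against 8.87, 7.11 and 10.5 on control 1, 2 and 3. A list of 6 erythroid genes averaged 7.18, 11.2 and 7.20 on the cKO-labelled arrays, against 9.03, 7.37 and 9.06 on the controls. Of both lists 0 genes passed the test, 0 had an unadjusted p under 0.05, and 0 of their values were listed at 0. Both lists were highest on cKO 2, and among the controls both were highest on control 3. Of 8 immune markers 2 fell, Csf1r and Lcp1, and 6 did not pass. The median change of the immune list was 0.40, but its arrays differed. It averaged 7.98, 9.50 and 7.85 on cKO 1, 2 and 3, against 8.44, 8.23 and 8.65 on control 1, 2 and 3. The list mean was thus below every control on cKO 1 and cKO 3 and above every control on cKO 2. Among 8 endothelial and 6 exocrine pancreas markers 0 passed and 0 had an unadjusted p under 0.05. The exocrine pancreas list averaged 10.5, 10.3 and 9.37 on cKO 1, 2 and 3, against 10.7, 9.07 and 7.62 on control 1, 2 and 3, lowest on control 3. Of 8 mesenchymal markers 0 passed and 5 had an unadjusted p under 0.05, with list means of 8.25 to 9.34 on the cKO-labelled arrays and 7.90 to 8.36 on the controls. Over all 19938 genes 5294 had an unadjusted p under 0.05, to be set beside each such count here and below. The part of mesenchymal cells in the changes below was not tested. Liver expresses several of the genes below, so for a number of them the change is also given without control 3 and cKO 2. Slc10a1 and Cyp7a1 have no such value here. In RNA pooled from many cells, a shift in the share of cells expressing a gene and a shift in RNA per cell cannot be told apart.

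Of the 9 bile acid axis genes 5 rose and 1 fell on the cKO-labelled arrays. Over all genes tested 5.52% rose, 7.42% fell and 12.9% changed in either direction. Fabp6, Slc10a2 and Fgf15 rose by between 3.07 and 5.04 on the log2 scale, the exporter pair Slc51a and Slc51b rose by less than 1, Nr0b2 fell, and Nr1h4, Abcc2 and Abcc3 did not pass the test. The median change of the 9 genes was 0.69, where that of all genes was −0.01. The cKO-labelled arrays did not overlap with the controls in 8 of the 9 genes, and over all genes this held for 32.6%. Without control 3 and cKO 2 the counts were again 5 higher and 1 lower. The lower count was 0 without control 2, control 3 or cKO 3, and the higher count was 4 without control 1, cKO 1 or cKO 3.

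**Figure D1:**
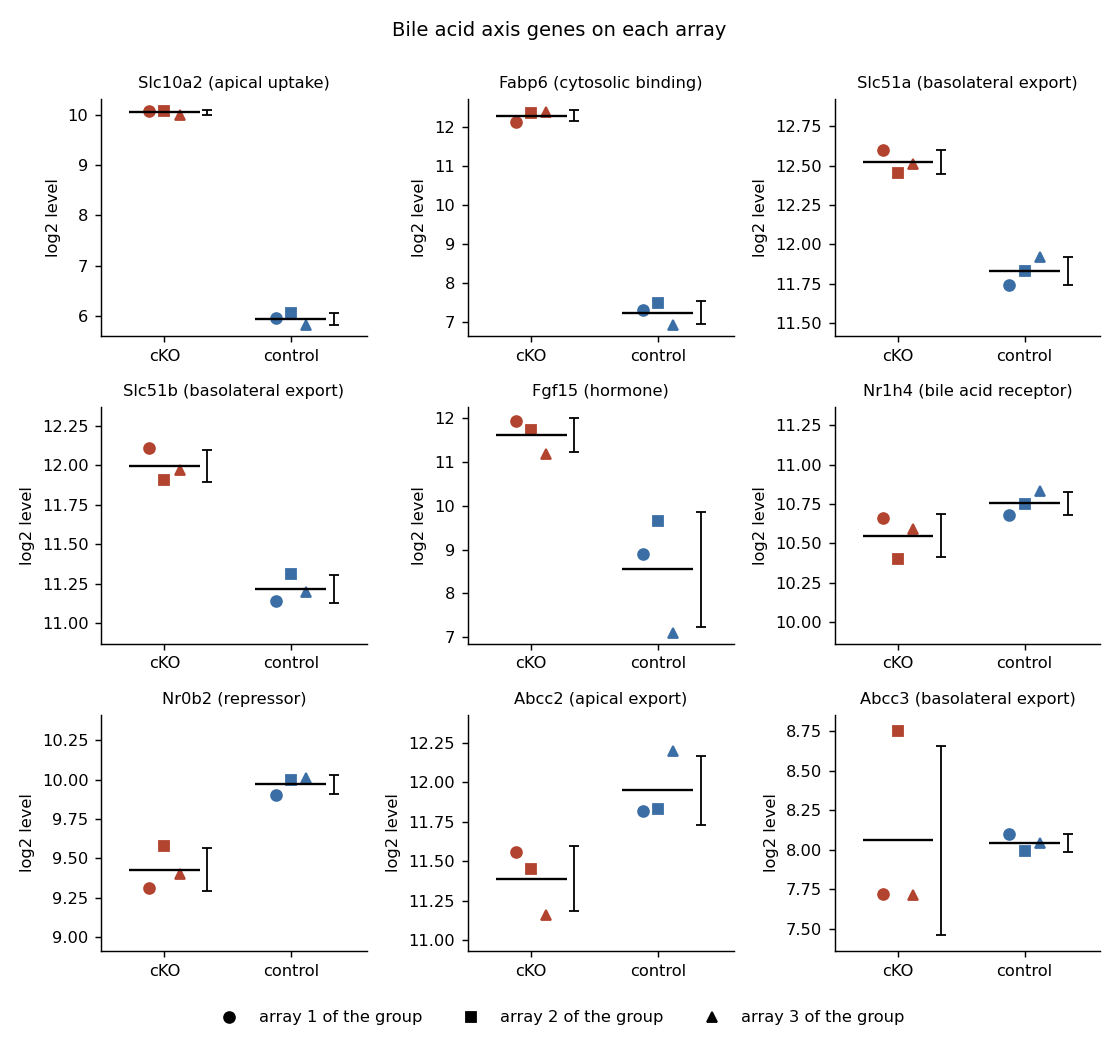
Deposited log2 level of each of the 9 bile acid axis genes on every array, with cKO-labelled arrays at left and controls at right of each panel; horizontal lines are group means, vertical bars ± 1 SD (n = 3) and marker shapes give the array number. The vertical scale differs between panels. The group means of Slc10a2 and of Fabp6 are over 4 log2 units apart, Fgf15 is spread widely on the controls, and Abcc3 is high on cKO 2 alone.

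Apical uptake and cytosolic binding moved furthest. Slc10a2, the brush border bile acid transporter (probe set 10576901), stood at 10.08, 10.08 and 10.00 on the cKO-labelled arrays, against 5.95, 6.05 and 5.81 on the controls. The arrays within each group lay close together, and the groups lay far apart. The change was 4.12 ± 0.086, a 17.3-fold rise (95% interval of the log2 change 3.91 to 4.32, adjusted p = 2.33e-05), and it ranked 7 among all rises. Fabp6, the cytosolic carrier (probe set 10385337), stood at 12.12, 12.36 and 12.37 on the cKO-labelled arrays, against 7.31, 7.50 and 6.93 on the controls. It had the largest change of the 9 genes, 5.04 ± 0.16 or 32.8-fold (95% interval 4.65 to 5.42, adjusted p = 6.53e-05), and ranked 2 among all rises. Neither gene was high on some cKO-labelled arrays and low on others. With any 1 array left out, the Slc10a2 change ran from 4.05 to 4.17 and the Fabp6 change from 4.88 to 5.16, each past the threshold. The log2 ratio of Fabp6 to Slc10a2 within an array was 2.04, 2.28 and 2.37 on the cKO-labelled arrays and 1.36, 1.45 and 1.12 on the controls. Each probe set has its own scale, so only the shift of this ratio, 0.92, was considered. An exact two-sided permutation test over the arrays gave the shift p = 0.1, the smallest p that 3 arrays against 3 allow. On the controls both genes lay under the whole-array medians, where low levels can hide larger changes. With 32 added to each linear value the changes were 3.55 for Slc10a2 and 4.77 for Fabp6, further apart than the 4.12 and 5.04 without it. The size of the shift thus depended on how low levels were treated, and it was not read as a difference in regulation of the 2 genes.

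The basolateral exporter genes rose by much less. Slc51a, the alpha subunit (probe set 10439068), stood at 12.60, 12.45 and 12.51 on the cKO-labelled arrays, against 11.74, 11.83 and 11.92 on the controls. This is a change of 0.69 ± 0.083, or 1.61-fold (adjusted p = 0.00351). Slc51b, the beta subunit without which the exporter does not reach the membrane (probe set 10594519), stood at 12.11, 11.91 and 11.97 on the cKO-labelled arrays, against 11.14, 11.31 and 11.20 on the controls. Its change was 0.78 ± 0.088, or 1.72-fold (adjusted p = 0.00277). For both subunits every cKO-labelled array was above every control, and cKO 1 was the highest array. The ratio of Slc51b to Slc51a shifted by 0.09 on the log2 scale (exact permutation p = 0.3), so a difference between the changes of the 2 subunits was not detectable with 3 arrays a group. The ratio of Slc10a2 to Slc51b shifted by 3.34 (exact permutation p = 0.1, the smallest possible). Its values were −2.03, −1.83 and −1.97 on the cKO-labelled arrays and −5.19, −5.26 and −5.39 on the controls, so the groups were far apart relative to their own spread.

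The hormone gene Fgf15 (probe set 10559373) rose as well, with the widest spread of the genes that passed. It stood at 11.94, 11.73 and 11.18 on the cKO-labelled arrays, against 8.89, 9.65 and 7.10 on the controls. The controls thus differed among themselves by more than 2 log2 units, with control 3 lowest, while the cKO-labelled arrays stayed within 1 unit and lay above every control. The change was 3.07 ± 0.62, or 8.40-fold (95% interval 1.57 to 4.57, adjusted p = 0.0241). The size of this rise depended on single arrays. Without control 3 it was 2.35 and without control 2 it was 3.62, both past the threshold, but the call was lost without control 1 (adjusted p = 0.0673), without cKO 1 (0.0741) or without cKO 3 (0.0547). Among the controls Fabp6 and Slc10a2 came in the same order as Fgf15, highest on control 2 and lowest on control 3, with much smaller gaps. Among the cKO-labelled arrays Fgf15 and Slc10a2 were lowest on cKO 3, and Fabp6 was lowest on cKO 1. Among the controls hepatocyte markers were lowest on control 2 and highest on control 3, and exocrine pancreas markers were lowest on control 3. The part of pancreatic cells in the Fgf15 values was not tested. With the hepatocyte list level as a covariate the Fgf15 change was 3.14 ± 0.59 (adjusted p = 0.0194), and without control 3 and cKO 2 it was 2.29 ± 0.35 (adjusted p = 0.0241).

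**Figure D2:**
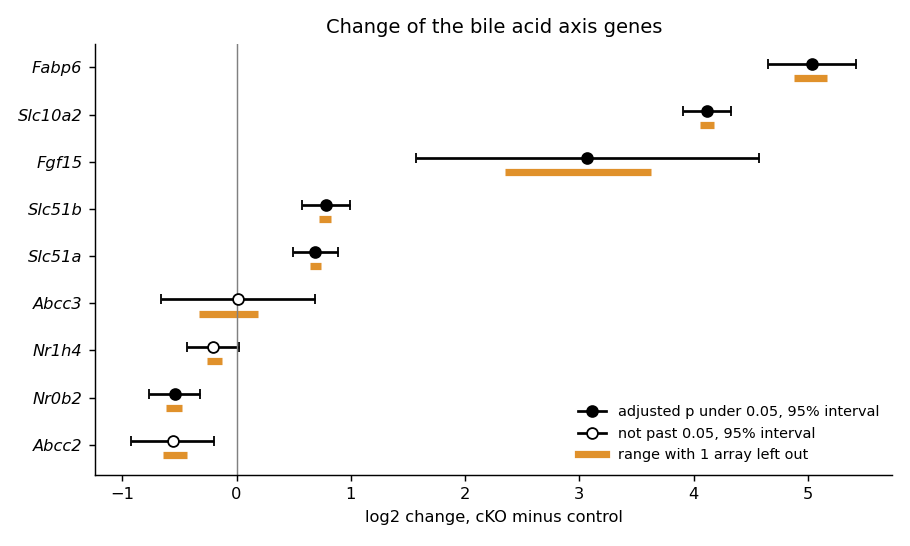
Log2 change of each of the 9 bile acid axis genes, cKO-labelled arrays minus controls, with its 95% interval; filled points passed an adjusted p of 0.05 and open points did not. Orange bars give the range of the change with 1 array left out, widest for Fgf15 (2.35 to 3.62) and on both sides of 0 for Abcc3 (−0.33 to 0.19).

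The receptor and the repressor did not share the rise. Nr1h4, which encodes FXR (probe set 10371784), stood at 10.66, 10.40 and 10.59 on the cKO-labelled arrays, against 10.68, 10.75 and 10.83 on the controls. The groups just failed to overlap, and the change of −0.20 ± 0.094 did not pass (95% interval −0.43 to 0.02, adjusted p = 0.234). Nr0b2, which encodes SHP (probe set 10508887), stood at 9.31, 9.58 and 9.40 on the cKO-labelled arrays, against 9.90, 10.00 and 10.01 on the controls. All 3 cKO-labelled arrays were below every control, and the change was −0.54 ± 0.093, 1.45-fold lower (adjusted p = 0.0131). Leaving out control 2, control 3 or cKO 3 ended this call (adjusted p of 0.0581, 0.0554 and 0.0534), while the change stayed between −0.62 and −0.48. Without both control 3 and cKO 2 the change was −0.09 for Nr1h4 (adjusted p = 0.674) and −0.595 for Nr0b2 (adjusted p = 0.0318). Fgf15 and Nr0b2 are both textbook targets of FXR. Their log2 ratio was 2.63, 2.15 and 1.78 on the cKO-labelled arrays and −1.01, −0.35 and −2.91 on the controls. The ratio shifted by 3.61 with no overlap between groups (exact permutation p = 0.1, the smallest possible).

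The organic anion exporters gave no call. Abcc2, the apical exporter MRP2 (probe set 10463308), stood at 11.56, 11.45 and 11.16 on the cKO-labelled arrays, against 11.82, 11.83 and 12.20 on the controls. Every cKO-labelled array was below every control, and the change of −0.56 ± 0.15 fell short of the threshold (adjusted p = 0.0603). It passed under 5 other treatments of the data, listed with the limits, and under none that left out an array. Without both control 3 and cKO 2 the Abcc2 change was −0.465 (adjusted p = 0.173). Abcc3, the basolateral exporter MRP3 (probe set 10389894), stood at 7.72, 8.75 and 7.71 on the cKO-labelled arrays, against 8.10, 7.99 and 8.04 on the controls. Here the groups overlapped through 1 array, cKO 2, the array with the highest hepatocyte, erythroid, immune and endothelial lists. The change was 0.02 ± 0.28 (adjusted p = 0.981) and turned to −0.33 ± 0.085 without cKO 2 (adjusted p = 0.0623). With the hepatocyte list level as a covariate it was −0.05 (adjusted p = 0.877).

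**Figure D3:**
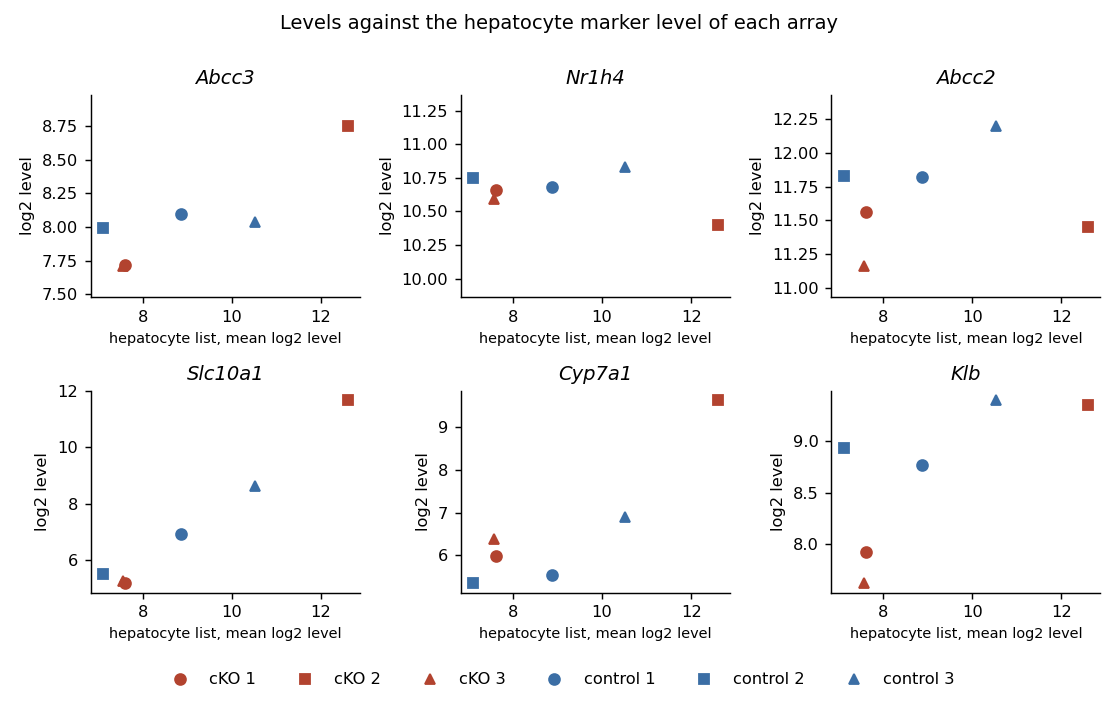
Log2 level of 6 genes (vertical axes) against the mean log2 level of the 10 hepatocyte markers (horizontal axes) on each array; red marks cKO-labelled arrays and blue controls. Slc10a1, Cyp7a1 and Abcc3 are highest on cKO 2, where the hepatocyte list is at 12.6, while Nr1h4 is lowest there and Abcc2 lies between the other cKO-labelled arrays.

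The stretches of DNA just before the start sites of the genes that rose are shown so that a reader can see what they do and do not share. RefSeq promoter windows of build GRCm38.p6, 250 bases before to 50 after the start, were matched for 7 of the 9 genes. Fgf15 and Abcc3 were the others. The 250 bases before the start follow, 5′ to 3′ on the strand of the gene, for the 4 transport and binding genes that rose and for Nr0b2, which fell. Capitals mark matches, on either strand, to the GATA words (AGATAA or its variant AGATAG, and TGATAA or its variant TGATAG), to the nuclear receptor half-site AGGTCA and to TTTATG, a core of CDX-type sites.
Fabp6, chr11:43601563-43601812, minus strand: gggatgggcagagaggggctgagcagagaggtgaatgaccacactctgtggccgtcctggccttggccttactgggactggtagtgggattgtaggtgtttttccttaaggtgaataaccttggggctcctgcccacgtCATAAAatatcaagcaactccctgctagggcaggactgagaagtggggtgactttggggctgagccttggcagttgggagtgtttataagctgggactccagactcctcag
Slc10a2, chr8:5105288-5105537, minus strand: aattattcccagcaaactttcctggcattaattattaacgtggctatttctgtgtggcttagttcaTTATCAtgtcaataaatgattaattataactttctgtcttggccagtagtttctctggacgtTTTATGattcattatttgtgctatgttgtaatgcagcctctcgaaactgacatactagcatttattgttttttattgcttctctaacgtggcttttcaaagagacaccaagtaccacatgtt
Slc51a, chr16:32487880-32488129, minus strand: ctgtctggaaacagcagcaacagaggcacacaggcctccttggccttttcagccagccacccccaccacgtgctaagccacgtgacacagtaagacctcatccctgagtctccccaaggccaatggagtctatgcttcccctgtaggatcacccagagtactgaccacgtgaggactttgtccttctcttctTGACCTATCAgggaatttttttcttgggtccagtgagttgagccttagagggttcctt
Slc51b, chr9:65422774-65423023, minus strand: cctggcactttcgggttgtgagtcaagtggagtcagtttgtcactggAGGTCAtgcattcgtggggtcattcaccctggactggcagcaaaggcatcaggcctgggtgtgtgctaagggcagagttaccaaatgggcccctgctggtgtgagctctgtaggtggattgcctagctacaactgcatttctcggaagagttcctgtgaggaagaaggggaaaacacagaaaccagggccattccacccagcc
Nr0b2, chr4:133553126-133553375, plus strand: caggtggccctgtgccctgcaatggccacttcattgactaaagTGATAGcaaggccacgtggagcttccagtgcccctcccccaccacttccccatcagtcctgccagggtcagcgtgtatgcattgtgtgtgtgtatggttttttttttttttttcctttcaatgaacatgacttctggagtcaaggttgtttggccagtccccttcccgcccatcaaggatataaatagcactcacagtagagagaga
No motif, searched as exact words only, was present in all 4 windows of the genes that rose. The Fabp6 window held 1 TTTATG, on the minus strand at 111 to 106 bases before the start, and no GATA word or exact AGGTCA. Inexact forms of the half-site were not counted, such as the aggtga within aggtgaataacct in the printed Fabp6 stretch. The absence of the exact word therefore does not show that a window lacks a nuclear receptor site. The Slc10a2 window held 1 GATA word at 184 to 179 bases and 1 TTTATG at 122 to 117 bases before the start. In the Slc51a window a GATA word and an AGGTCA on the minus strand overlapped by 2 bases, spanning 58 to 49 bases before the start. The Slc51b window held 1 AGGTCA at 203 to 198 bases before the start. Nr0b2 had a GATA word in the printed stretch and another 14 to 19 bases after the start. A GATA word was found in 5 of the 7 windows, including Nr1h4 and Abcc2, and in 29.8% of 32841 windows of 300 bases over all genes. AGGTCA was found in 16.3% of those windows and TTTATG in 11.9%. CAAGGTCA, which contains AGGTCA, was in 1.56% of windows and in none of the 7. These matches describe letters only, and whether any factor binds there was not measured.

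Fabp6 was set against the other fatty acid and bile acid binding protein genes, whose products share its fold. Of 6 others measured, 2 fell and 0 rose on the cKO-labelled arrays. The shares over all genes tested, 5.52% higher and 7.42% lower, are to be set beside each such count here and below. Fabp1, the liver-type carrier of the proximal enterocyte, stood at 10.42, 11.42 and 11.18 on the cKO-labelled arrays, against 12.93, 12.96 and 13.06 on the controls, a change of −1.98 ± 0.25 (adjusted p = 0.00408). Fabp2, the intestinal fatty acid carrier, stood at 10.64, 9.90 and 11.02 on the cKO-labelled arrays, against 13.18, 13.28 and 13.29 on the controls, a change of −2.73 ± 0.27 (adjusted p = 0.00163). Thus the bile acid carrier gene rose on the same arrays on which the enterocyte's other carrier genes fell. Fabp3, Fabp4, Fabp5 and Fabp7 changed by −0.15 to 0.26 and did not pass. Among the other SLC10 genes, relatives of Slc10a2, 1 of 5 measured rose, Slc10a7 by 0.43 ± 0.075 (adjusted p = 0.0132), a call lost without control 2, control 3 or cKO 3. Among 8 other ABCC genes 2 rose, Abcc1 by 0.54 ± 0.078 (adjusted p = 0.00663) and Abcc4, a further basolateral exporter able to carry bile acids, by 0.66 ± 0.11 (adjusted p = 0.0122). The Abcc4 call was lost without control 3 (adjusted p = 0.0537), where its change was 0.635. Without both control 3 and cKO 2, with 2 arrays a group, the changes were 0.495 for Abcc1 and 0.545 for Abcc4 and missed the threshold (adjusted p of 0.0589 and 0.064). The other endocrine FGF genes, Fgf21 and Fgf23, changed by 0.09 ± 0.093 and −0.08 ± 0.074 and did not pass.

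Other genes of the pathway were described from 6 lists. Of 33 measured, 4 rose and 3 fell, with a median change of 0.16, where 5.52% of all genes tested rose and 7.42% fell. The lower count was 0 without control 1, control 2, control 3 or cKO 3, and 1 without cKO 1. On the receiving side of FGF15, Fgfr4, the gene of its receptor, stood at 10.17, 10.24 and 10.20 on the cKO-labelled arrays, against 9.21, 9.17 and 8.97 on the controls. It rose by 1.09 ± 0.087, or 2.12-fold (adjusted p = 0.000844), and passed with any 1 array left out. Klb, which encodes beta-Klotho, stood at 7.92, 9.35 and 7.62 on the cKO-labelled arrays, against 8.77, 8.93 and 9.40 on the controls. Its groups overlapped through cKO 2 and its change of −0.74 ± 0.45 did not pass (adjusted p = 0.366). Without cKO 2 the Klb change was −1.26 (adjusted p = 0.0128), and with the hepatocyte list level as a covariate it was −0.85 (adjusted p = 0.0371). Without both control 3 and cKO 2 the change was 0.995 for Fgfr4 (adjusted p = 0.00633) and −1.08 for Klb (adjusted p = 0.0155). Malrd1, known from mice as a gene that raises FGF15 output of the enterocyte, stood at 8.01, 7.52 and 7.91 on the cKO-labelled arrays, against 8.46, 8.55 and 9.11 on the controls. It fell by 0.89 on the log2 scale (adjusted p = 0.0387), though not once any 1 array was left out (adjusted p of 0.0596 to 0.0893).

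**Figure D4:**
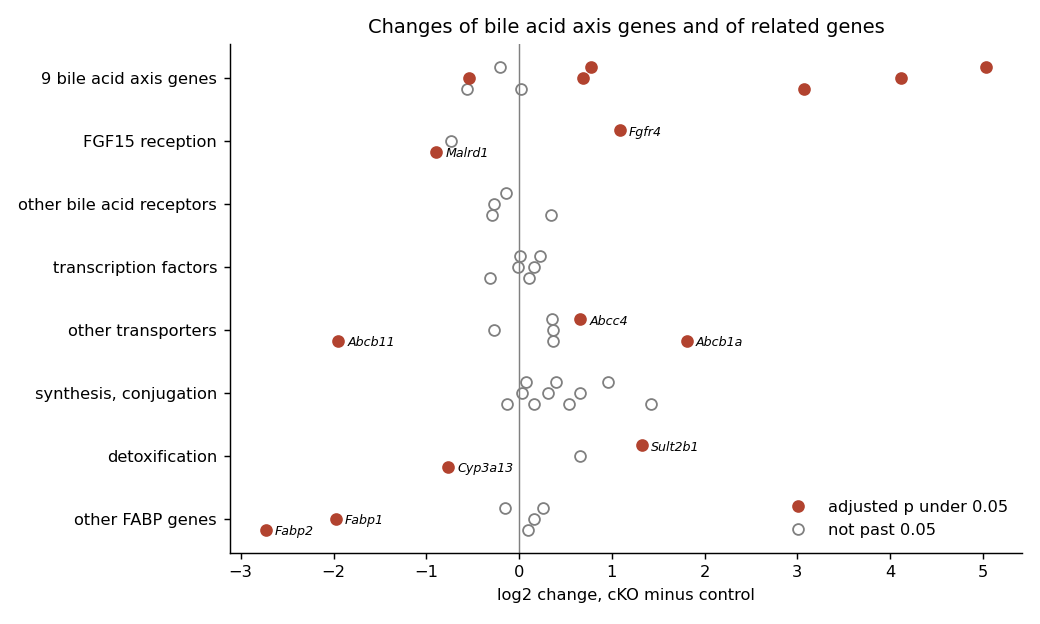
Log2 change, cKO-labelled arrays minus controls, of the 9 bile acid axis genes and of the genes of 7 related lists, 1 point per gene; red filled points passed an adjusted p of 0.05. Synthesis genes, other receptors and transcription factors have no filled point, and the other FABP genes that passed lie on the opposite side of 0 from Fabp6.

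Known regulators of these genes gave no call. Of 6 measured transcription factor genes 0 rose and 0 fell, and 1 had an unadjusted p under 0.05, Nr5a2, which encodes LRH-1, a partner of SHP. Over all 19938 genes 5294 had such a p. Nr5a2 changed by 0.23 ± 0.088 (adjusted p = 0.158). Hnf4a, which encodes a nuclear receptor of the enterocyte, stood at 12.51, 12.53 and 12.61 on the cKO-labelled arrays, against 12.52, 12.54 and 12.57 on the controls, a change of 0.01 ± 0.068 (95% interval −0.16 to 0.17) whose sign turned with centring and with single arrays. Rxra, the gene of the partner that FXR binds DNA with, changed by 0.16 ± 0.11 (95% interval −0.10 to 0.42). Of the other bile acid receptor genes Gpbar1, Vdr, Nr1i2 and Nr1i3, 0 of 4 passed and 1 had an unadjusted p under 0.05. That was Nr1i2, the gene of the xenobiotic receptor PXR, at −0.29 ± 0.084 (adjusted p = 0.0751), with no overlap between its groups.

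Among 7 other transporters of bile acids and organic anions 2 rose and 1 fell, where 5.52% of all genes tested rose and 7.42% fell. Abcb1a, which encodes the apical drug efflux pump P-glycoprotein, rose by 1.81 ± 0.12, or 3.50-fold (adjusted p = 0.000438). Abcb11 encodes the bile salt export pump of the liver cell and is a textbook FXR target there. It stood at 7.71, 9.66 and 8.64 on the cKO-labelled arrays, against 10.33, 10.53 and 11.00 on the controls, and fell by 1.95 on the log2 scale (3.86-fold lower, adjusted p = 0.0443). The call was lost on leaving out any of the other 5 arrays (adjusted p of up to 0.146), and without cKO 2 the change was −2.45 (adjusted p = 0.00566). Within each group Abcb11 was highest on the array highest in hepatocyte markers, cKO 2 and control 3, and all cKO-labelled arrays were below every control. With the hepatocyte list level as a covariate the change was −2.06 ± 0.28 (adjusted p = 0.00645), and without control 3 and cKO 2 it was −2.255 (adjusted p = 0.0185). Slc10a1, the hepatocyte uptake transporter, was also highest on those arrays, at 5.16, 11.69 and 5.26 on the cKO-labelled arrays against 6.93, 5.51 and 8.62 on the controls. Among 10 genes of bile acid synthesis and conjugation 0 passed, and 1 had an unadjusted p under 0.05, the conjugating enzyme gene Baat (0.40 ± 0.10, adjusted p = 0.0571). Cyp7a1, the rate-limiting enzyme gene of synthesis in the liver and the final target of FGF15, stood at 5.99, 9.64 and 6.38 on the cKO-labelled arrays, against 5.53, 5.34 and 6.89 on the controls. Its highest values lay on cKO 2 and control 3, the arrays highest in hepatocyte markers, so it was not read as a level of the epithelium. Of 3 detoxification genes Sult2b1, a sterol sulfotransferase, rose by 1.33 ± 0.19 (adjusted p = 0.00715). Cyp3a13, a cytochrome P450 of the gut, fell by 0.76 on the log2 scale (adjusted p = 0.0254), a call that held only without cKO 1 among the fits that left out an array.

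Genes of the proximal enterocyte and of the neonatal ileum gave the nearest regional comparisons. Of 11 proximal enterocyte genes, which include Fabp1 and Fabp2 counted above, 10 fell and 0 rose (median −1.57). Among them were Lct, the lactase gene, (−4.54 ± 0.45) and Cybrd1, a ferric reductase (−2.58 ± 0.13). The falls of Apoa1 and Slc2a2 each passed in only 1 of the 6 fits that left out 1 array (adjusted p of up to 0.131 and 0.148). Over all genes 7.42% fell and 5.52% rose, with a median change of −0.01. The lists were chosen with earlier results of these data known, so these counts describe the listed genes only. Of 10 genes of endocytosis and lysosomal digestion in the neonatal ileum 1 rose and 2 fell (median −0.28). Lrp2, which encodes the endocytic receptor megalin, rose by 1.87 ± 0.22 (adjusted p = 0.00341), whereas Cubn, its partner cubilin, changed by 0.04 ± 0.11 (adjusted p = 0.879). Lysosomal Ctsl fell by 1.65 on the log2 scale (adjusted p = 0.00162). Colonic epithelium also expresses bile acid exporters, and of 7 colonic markers 2 rose and 1 fell on the cKO-labelled arrays, with list means of 7.92 to 8.53 against 7.87 to 8.11 on the controls. Car1, a carbonic anhydrase gene of that list, stood at 10.12, 11.09 and 9.79 on the cKO-labelled arrays, against 7.45, 6.08 and 7.15 on the controls, and rose by 3.44 ± 0.45, or 10.9-fold (adjusted p = 0.00486). Muc16 rose by 0.37 and Slc26a3, an anion exchanger gene, fell by 0.96 on the log2 scale (adjusted p of 0.0471 and 0.00521). The Muc16 levels were low, at 5.77, 5.50 and 5.69 on the cKO-labelled arrays, against 5.29, 5.22 and 5.33 on the controls. All lay under the whole-array medians. Of 8 gastric markers 0 passed and 2 had an unadjusted p under 0.05.

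The genes whose profile over the 6 arrays lay nearest to 3 of the members were found by the Euclidean distance between log2 profiles, each centred on its own mean. Nearest to Slc10a2 were Fa2h at a distance of 0.39, Tmigd1 at 0.46, Slc5a8 at 0.76, Defb37 at 0.77 and Reg3b at 0.93. Nearest to Fabp6 were Reg3b at 0.79, Defb37 at 0.83, Slc5a8 at 1.01, Cyp2j5 at 1.02 and Slc10a2 itself at 1.18. Defb37 and Reg3b encode antimicrobial peptides and Slc5a8 a monocarboxylate transporter. Fgf15 had no neighbour as near, with Cldn8 at 1.64, Itih5 at 1.72, Lin7a at 1.79, Acsm3 at 1.81 and Pla2g4c at 1.84. The control levels of Cldn8, a tight junction gene, were 10.24, 10.19 and 9.66, so it shared the low value of control 3 but not the spread of Fgf15. Within the 9 genes, the profiles of Slc51a and Slc51b lay nearest to each other, at 0.18, and Fabp6 lay 1.18 from Slc10a2 and 2.90 from Fgf15. Such a distance is small where the change between the groups is of like size.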

How the data were processed

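Gene expression was measured in epithelial RNA on 6 Affymetrix Mouse Gene 1.0 arrays, 3 labelled Gata4Gata6 cKO and 3 labelled control by their source names. The authors deposited log2 levels, 1 for each probe set on each array, which came from dChip, per the series text. The version, background correction and normalization are not stated in what was used here. The log base was inferred from the range of the values, 0 to 14.25. Without detection calls, low levels can hide larger changes.

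Of 35512 probe sets 21789 have 1 gene, 1621 several and 12102 none in the platform annotation, and symbols were checked by gene ID against RefSeq (21698 matched, 0 changed). The single-gene probe set with the highest mean was kept per gene, leaving 19938 genes, which were fitted together with limma 3.58.1 in R 4.3.3 (lmFit and eBayes, two-sided, no covariate, no filter, Benjamini-Hochberg at 0.05). The fit was tested on simulated data. Named were the 9 members, Gata4 and Gata6, up to 4 genes per list by adjusted p, a few regulators and FABP genes whether changed or not, and 5 nearest profiles each for Fabp6, Slc10a2 and Fgf15. Other genes were named after their values were seen. Members and lists were chosen with earlier results of these data known. Slc10a3, listed, was not analysed here. The alternatives were 8 other treatments of the data, each array left out, control 3 and cKO 2 left out together, and the hepatocyte list level as a covariate. The labels give no batch.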

Additional observations from a re-analysis of the deposited data

How the results depend on the processing

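Fabp6, Slc10a2, Slc51a and Slc51b kept their direction and their call under all 16 alternatives. With 1 array left out, 4 to 5 of the 9 genes were higher and 0 to 1 lower, the other pathway genes gave 3 to 5 higher and 0 to 4 lower, and 1482 to 2281 genes passed in all. In these fits the Fgf15 change ran from 2.35 to 3.62, that of Nr0b2 from −0.62 to −0.48, that of Nr1h4 from −0.26 to −0.13, that of Abcc2 from −0.65 to −0.44, that of Abcc3 from −0.33 to 0.19 and that of Hnf4a from −0.023 to 0.027. Without control 3 and cKO 2 together 1586 genes passed. Abcc2 passed, making 2 lower genes, with centred arrays (−0.57), with log2(value + 32) on the linear value (−0.55), with the dimmest genes (lower tertile) left out (−0.56), with a trended robust eBayes (−0.56) and with array weights (−0.59). The Fgf15 change of 3.07 missed the threshold with a trended robust eBayes (adjusted p = 0.074). Abcc3 turned negative with quantile normalization (−0.016), array weights (−0.11), the hepatocyte covariate (−0.050) and without control 3 and cKO 2 (−0.33), and Hnf4a with centred arrays (−0.0033). Why these values moved was not tested beyond the arrays named.

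With the replicate number as a block, the 9 genes kept 5 higher and 1 lower, the other pathway genes had 0 lower, and 1449 genes passed in all. The numbers do not pair the arrays: deviations from the group means correlated at −0.015, −0.42 and −0.18 for numbers 1, 2 and 3, and no array correlated best with its own number. Signal over background was not available.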
